A study of Mus musculus with 20 samples.

Results

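The cytochrome P450 genes of families 1, 2 and 3 were followed by their transcript levels in male and female mouse liver. The members were 39 listed gene symbols looked up in the deposited RNA-seq tables, and 38 were found in both, among 18149 genes that the male and the female table share. The symbol Cyp2c44 was not found. RefSeq lists it as a synonym of Cyp2c23, which is described with the other family rows. The RNA-seq samples came, for each sex, from 3 WT and 3 Midn-T animals aged 11 to 14 weeks. All carried the Midn XTR conditional gene-trap allele. The WT livers are labelled Midn XTR, with the cassette in its expressed state. The Midn-T livers are labelled Midn TR, with the trap switched on by a Cre driven from the Albumin promoter. Recombination is thus directed to hepatocytes. The state of the allele in other liver cells, and whether the WT animals carried Cre, is not given in the sources used here. Midn encodes midnolin, a nuclear protein that carries transcription factors to the proteasome. RNA came from whole liver tissue.

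The tables hold no value for a single sample. Each gene has 1 mean normalized count per sex, which the authors took over all 6 libraries of that sex, WT and Midn-T together. The contrast of Midn-T with WT was therefore not analysed here, and any effect of the allele on a member lies inside these means. What can be read is the level of every member in males and in females. The sexes were normalized in separate tables, so sex and table cannot be told apart, and no ratio below has a replicate error or a test. Each mean was divided by its own table's sum before a ratio was formed, and a gene was counted as higher in one sex when the ratio was more than 2-fold.

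P450 enzymes are heme-containing monooxygenases of the endoplasmic reticulum that receive electrons from P450 oxidoreductase. Families 1 to 3 oxidize drugs, toxins and plant compounds, and many members also hydroxylate steroids, bile acids or fatty acids. In liver they are made mainly by hepatocytes, often most strongly around the central vein, and the receptors AHR, CAR and PXR are the known inducers of the Cyp1a, Cyp2b and Cyp3a genes. In rodents several members are known to be sex-biased under the control of the pituitary growth hormone rhythm.

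Of the 38 members, 16 (42.1%) were more than 2-fold higher in females, against 4.12% of all genes (748 of 18149). Only Cyp2d9 and Cyp2u1 (5.26%) were more than 2-fold higher in males, against 1.44% of all genes (262 of 18149). The other 20 members lay within 2-fold, between a log2 ratio of male over female of -0.59 and 0.66. The members were chosen with earlier results of these data known, so their shares do not stand for the P450 families as a whole. Of 10 other functional genes of the same families in both tables, 0 were female-higher, 1 was male-higher and 9 were within 2-fold. The median log2 ratio was -0.40 over the members and -0.05 over all genes. Members made up 10 of the 50 genes with the lowest male over female ratio and 13 of the lowest 100. All these counts cover only genes in the female table, which lists no mean below 6.61, while the male table reaches 0. Genes near 0 in males, such as Cyp2b13 and Cyp3a41a, could enter, and genes near 0 in females could not. The female-higher and male-higher shares are therefore not on equal terms.

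**Figure D1:**
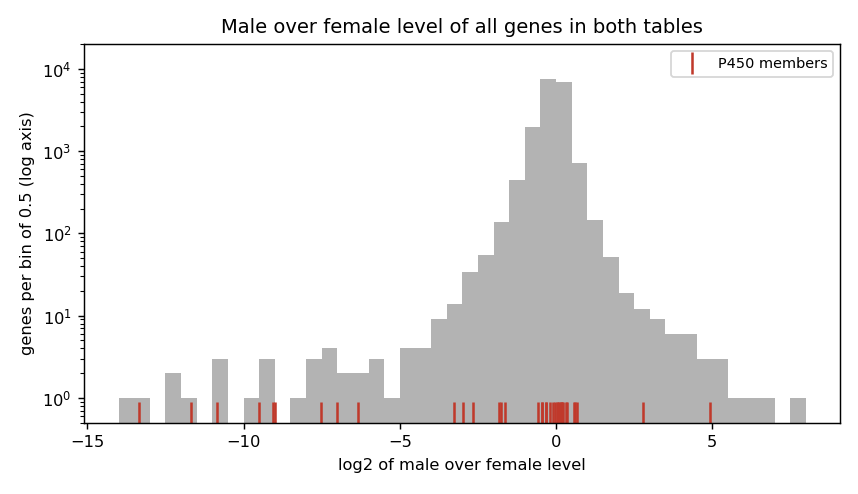
Histogram of the log2 ratio of male over female level for all genes in both tables with a male mean above 0 (bins of 0.5, log count axis), with a red tick for each P450 member. Most members stand within the central peak, and a second set stretches from -1.63 down to -13.33.

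Although single genes differed by up to 10316-fold, the members' summed level was close in both sexes. Together they took 2.11% of the male and 2.20% of the female normalized counts. What differed was which genes filled that share. Per kilobase of exon, the members' summed level was 6398 in males and 7526 in females. In the percentages below, a gene of equal level therefore has a smaller value in females. Per kilobase of exon, the Cyp2b genes made up 0.0546% of the members' summed level in males and 7.77% in females, while the Cyp2c genes went from 14.6% to 23.4% and the Cyp2a genes from 9.94% to 14.0%. The Cyp2d genes held 11.5% in males and 6.02% in females, and the Cyp3a genes 16.8% and 11.5%. Cyp2e1 alone was the largest component in both, at 33.6% and 27.9%. These shares rest on the exon union as length, which for some genes is much longer than the longest transcript. For Cyp3a25 the lengths are 8.157 and 2.979 kb, and for Cyp3a11 5.207 and 2.802 kb. Without a length, the Cyp3a genes took 0.578% of all normalized counts in males and 0.424% in females. Cyp2e1 took 0.608% and 0.594%.

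**Figure D2:**
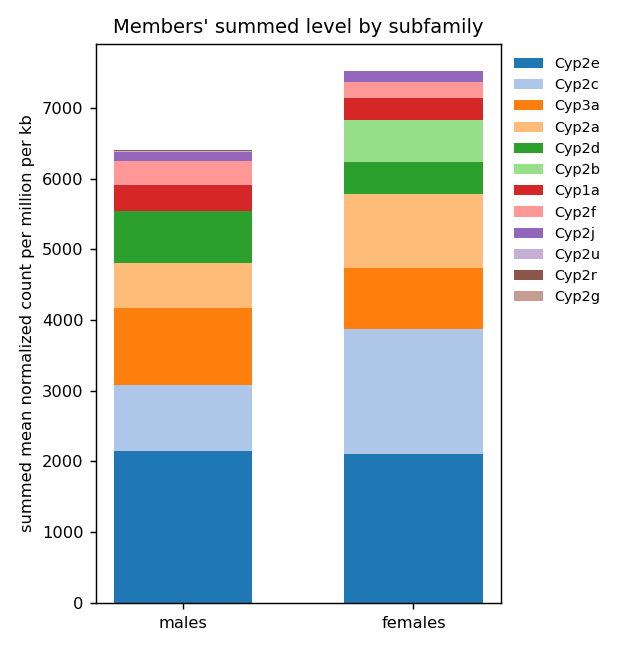
Stacked bars of the members' mean normalized count per 1000000 of the table's sum and per kilobase of exon, summed by subfamily, in males and in females. Cyp2e is the largest block in both sexes, and the Cyp2b block is visible in females only.

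Ordered per kilobase of exon, the same 4 genes led in males and females. These were Cyp2e1, which oxidizes ethanol and acetaminophen, Cyp3a11, the main drug-metabolizing Cyp3a enzyme of mouse liver, Cyp2a5, a coumarin hydroxylase, and Cyp2c29, an arachidonic acid epoxygenase. Of the 10 highest members in each sex, 7 were shared. Cyp2d9, Cyp2f2 and Cyp2j5 were among the 10 highest in males only, and Cyp2a4, Cyp2b9 and Cyp2c37 in females only. With the longest transcript as length in place of the exon union, Cyp2c29, Cyp2d9 and Cyp2f2 nearly tie in males, and Cyp2a5 and Cyp2c50 in females. The lower places among the first 4 therefore depend on the length used. With no spread over samples, the order of close neighbours cannot be resolved.

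**Figure D3:**
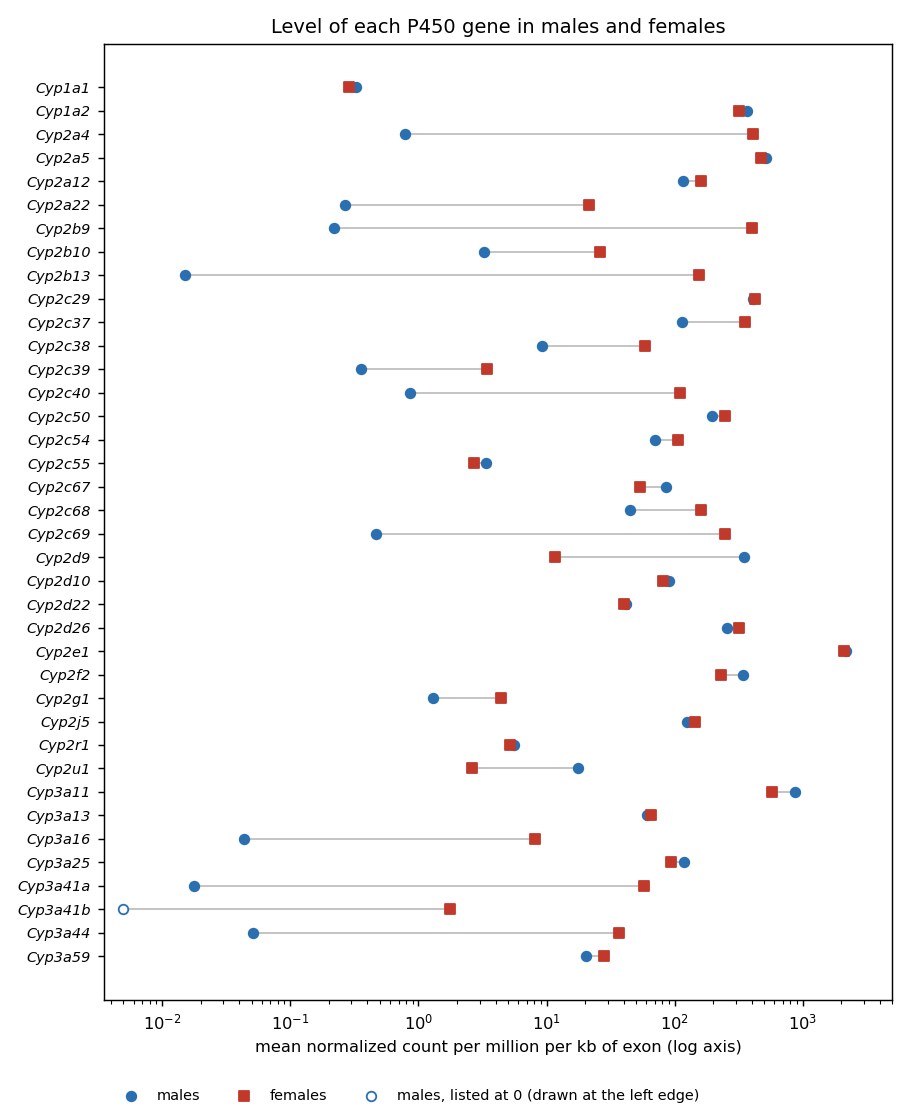
Mean normalized count per 1000000 of the table's sum and per kilobase of exon (log axis) of each member, with blue circles for males and red squares for females. The open circle is Cyp3a41b, listed at 0 in males and drawn at the left edge. The long lines belong to female-higher genes, and Cyp2d9 and Cyp2u1 show the reverse order.

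The Cyp2a genes on chromosome 7 held the closest pair with unequal ratios. Cyp2a4, known as a female steroid hydroxylase (ENSMUSG00000074254, chr7:26006594-26014513, plus strand, GRCm39), had a mean normalized count of 41.7 in males and 21825 in females, a 515-fold difference. Cyp2a5 (chr7:26534730-26542973, plus strand) had 32600 in males and 29784 in females. The pair starts 528 kb apart, and their coding sequences are 98.5% identical, with 23 substitutions in 1485 bases, of which 12 change the encoded residue. One of them, T625C counted from the first base of the coding sequence with the Cyp2a5 base first, lies in codon 209, a position known from enzyme studies to separate coumarin from steroid hydroxylation. The codon is shown in capitals within coding bases 613 to 639 of the reference transcripts.
Cyp2a5: atgctgggaagcTTCcagttcactgct
Cyp2a4: atgctgggaagcCTCcagttcactgct
TTC encodes phenylalanine and CTC leucine. The 250 bases before the annotated starts of these genes are also close, at 90.4% identity with 5 substitutions and 20 gap bases. They are shown because the pair differs so much in ratio. Capitals mark the letters TTNNGCAA on either strand, a C/EBP motif, and TATAAA, the letters of the TATA box, which run past the end of the Cyp2a4 window.
Cyp2a4 (chr7:26006344-26006593, plus strand): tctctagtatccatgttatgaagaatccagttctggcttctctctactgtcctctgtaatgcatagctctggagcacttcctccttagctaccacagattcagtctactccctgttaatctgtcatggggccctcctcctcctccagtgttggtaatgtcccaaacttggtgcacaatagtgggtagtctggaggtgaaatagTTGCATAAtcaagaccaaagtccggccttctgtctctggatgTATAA
Cyp2a5 (chr7:26534480-26534729, plus strand): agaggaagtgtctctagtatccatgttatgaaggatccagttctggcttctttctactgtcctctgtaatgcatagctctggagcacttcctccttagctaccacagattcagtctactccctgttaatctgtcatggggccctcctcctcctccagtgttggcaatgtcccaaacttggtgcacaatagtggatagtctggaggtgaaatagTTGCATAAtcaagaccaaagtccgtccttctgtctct
Both windows hold the C/EBP letters, 47 bases before the annotated start in Cyp2a4 and 37 in Cyp2a5. A TATAAA stands 5 bases before the annotated start of Cyp2a4 and 5 bases after that of Cyp2a5, so the windows are offset by the annotation.

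Cyp2a22 and Cyp2a12 form the other Cyp2a pair, with coding sequences 97.0% identical. Cyp2a22 had a mean normalized count of 33.4 in males and 2756 in females, an 81.2-fold difference. Cyp2a12, a testosterone hydroxylase, had 12113 in males and 16957 in females. In both Cyp2a pairs, then, 1 gene was female-higher and its near copy was within 2-fold.

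All 3 Cyp2b members were higher in females, and as a group they were 154-fold higher. Cyp2b9 had a mean normalized count of 13.0 in males and 24118 in females, a 1832-fold difference. Cyp2b13 had 0.853 in males and 8941 in females. Its male value stands for 4 to 6 reads over the 6 libraries, so the 10316-fold ratio has a 95% Poisson counting interval of 4029 to 37862. Cyp2b10, the classical target of the receptor CAR, had a mean normalized count of 209 in males and 1686 in females. At 7.95-fold it differed least of the 3 and was the one with a clear male level. Its 250 bases before the start are 50.2% identical to those of Cyp2b9, with 51 substitutions and 98 gap bases, which lower that value. Those of Cyp2b9 and Cyp2b13 are 98.4% identical. Cyp2g1, known from the olfactory mucosa and lying in the same cluster, had 85.2 in males and 295 in females.

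The Cyp2c genes on chromosome 19 were divided. Of 11 members, 6 were higher in females and 5 within 2-fold, and none was higher in males by that rule. Cyp2c69 (chr19:39831103-39875243, minus strand) had a mean normalized count of 27.5 in males and 14757 in females, a 529-fold difference, and Cyp2c40, an arachidonic acid hydroxylase, had 84.8 and 11118, a 129-fold difference. Cyp2c39, a retinoic acid hydroxylase, had 30.7 in males and 301 in females. The remaining female-higher genes were also well above 0 in males. Cyp2c38 had 816 in males and 5266 in females, Cyp2c68 had 3562 and 12906, and Cyp2c37 had 6895 and 21707. These 3 genes differed by 3.10-fold to 6.35-fold.

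Among the Cyp2c genes within 2-fold, Cyp2c29 was the most abundant per kilobase and nearly equal, at 41325 in males and 43187 in females. Cyp2c50 had 21914 in males and 28068 in females, and Cyp2c54 had 8583 and 13154. Cyp2c55, known mainly from the intestine, had 256 in males and 208 in females. Cyp2c67 (chr19:39597286-39637500, minus strand) was the only Cyp2c gene above 1.5-fold in the male direction, at 5059 in males and 3249 in females. Cyp2c67, Cyp2c68, Cyp2c40 and Cyp2c69 follow each other along the chromosome, and their log2 ratios were 0.66, -1.83, -7.01 and -9.05. Cyp2c67 and Cyp2c69 are 97.7% identical in coding sequence.

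The 250 bases before the annotated starts of Cyp2c69 and Cyp2c67 are shown, each on its own strand, for this pair at the ends of the run. Capitals mark CAAAGTCCA, a form of the HNF4A motif, TTNNGCAA (which runs past the end of the Cyp2c69 window) and TATAAA.
Cyp2c69 (chr19:39875244-39875493, minus strand): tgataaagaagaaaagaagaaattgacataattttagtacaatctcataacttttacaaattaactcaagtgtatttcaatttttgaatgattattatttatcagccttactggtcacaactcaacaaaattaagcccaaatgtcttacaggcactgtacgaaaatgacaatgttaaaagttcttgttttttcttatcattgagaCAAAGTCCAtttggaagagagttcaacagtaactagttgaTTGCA
Cyp2c67 (chr19:39637501-39637750, minus strand): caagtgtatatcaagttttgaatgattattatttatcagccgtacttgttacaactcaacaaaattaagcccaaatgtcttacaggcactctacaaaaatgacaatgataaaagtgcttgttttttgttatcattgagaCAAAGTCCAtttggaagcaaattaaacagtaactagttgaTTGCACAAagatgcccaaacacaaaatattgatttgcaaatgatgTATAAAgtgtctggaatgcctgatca
Both hold CAAAGTCCA followed by the C/EBP letters. CAAAGTCCA begins 45 bases before the annotated start in Cyp2c69 and 111 before that of Cyp2c67, so these windows too are offset, and their 53.8% identity counts 132 gap bases beside only 14 substitutions.

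The Cyp2d genes on chromosome 15 gave the largest male-higher member. Cyp2d9, a male testosterone hydroxylase (chr15:82317638-82341046, plus strand), had a mean normalized count of 29934 in males and 1009 in females, a 30.1-fold difference, and was the gene with rank 9 of all 18149 in that direction. Cyp2d10, 92.5% identical to it in coding sequence, had 14392 in males and 13064 in females. Cyp2d22 had 6288 and 6144, and Cyp2d26 had 16457 and 20743. Cyp2d9 was thus the single Cyp2d member outside 2-fold. Cyp2u1, a fatty acid hydroxylase on chromosome 3, had 3454 in males and 516 in females, a 6.81-fold difference.

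**Figure D4:**
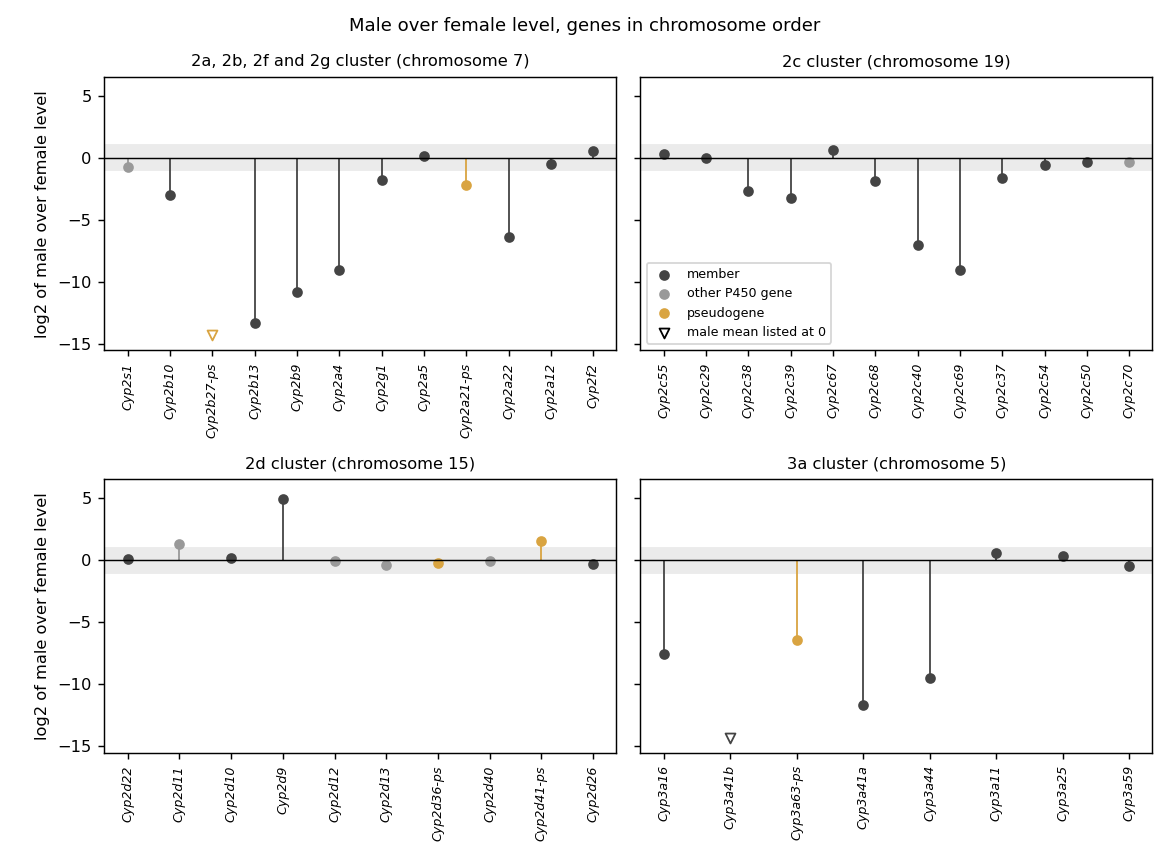
Log2 ratio of male over female level for the P450 genes of the 4 large clusters that are in both tables, in chromosome order and not to scale along it. Dark points are members, grey points other P450 genes, yellow points pseudogenes, open triangles genes listed at 0 in males, and the grey band marks 2-fold. Female-higher genes stand beside genes within 2-fold in the chromosome 7, 19 and 5 clusters, and on chromosome 15 Cyp2d9 is the only member outside the band, with Cyp2d11 and Cyp2d41-ps also above it.

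The Cyp3a genes on chromosome 5 separated into 4 that were nearly silent in males and 4 within 2-fold. Cyp3a41a (chr5:145630859-145656946, minus strand) had a mean normalized count of 1.10 in males, from 4 to 8 reads, and 3647 in females. The ratio of 3259-fold has a 95% Poisson counting interval of 1273 to 11961. Its near copy Cyp3a41b was listed at 0 in males and at 112 in females, at least 132-fold higher when the male value is set to 3 reads in the shallowest library. The 2 coding sequences are 99.9% identical, and 82.9% of the 150-base windows of the Cyp3a41a transcript occur unchanged in a transcript of Cyp3a41b. The authors kept uniquely mapped reads, so the levels of this pair and their division between the 2 genes are uncertain. Their summed means were 1.10 in males and 3759 in females.

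Cyp3a44 had 3.05 in males, from 11 to 23 reads, and 2229 in females, a 720-fold difference with a counting interval of 403 to 1443. Cyp3a16, known as a fetal Cyp3a gene, had 2.29 in males, from 9 to 17 reads, and 429 in females, a 184-fold difference with an interval of 96.8 to 402. These intervals cover counting error only. Cyp3a11 had 137984 in males and 91853 in females, 1.53-fold higher in males, and is 95.2% identical to Cyp3a41a in coding sequence. Cyp3a25 had 29282 and 23347, Cyp3a59 had 1575 and 2199, and Cyp3a13, which lies in another part of chromosome 5, had 6050 and 6598. The genes nearly silent in males lie together, from Cyp3a16 to Cyp3a44, and the next in order are Cyp3a11, Cyp3a25 and Cyp3a59. The 250 bases before the start of Cyp3a41a, with TATAAA and CAAAGTCCA in capitals, stand for the 4 female-higher genes, whose windows are alike.
Cyp3a41a (chr5:145656947-145657196, minus strand): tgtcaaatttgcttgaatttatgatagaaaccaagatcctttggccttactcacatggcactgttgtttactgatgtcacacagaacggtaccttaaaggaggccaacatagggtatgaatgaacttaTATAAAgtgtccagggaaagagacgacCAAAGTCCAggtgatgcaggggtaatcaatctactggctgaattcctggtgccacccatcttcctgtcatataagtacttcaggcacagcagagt
This stretch is 90.9% identical to that of Cyp3a16, 92.9% to that of Cyp3a44 and 42.2% to that of Cyp3a11. CAAAGTCCA was found in Cyp3a16, Cyp3a41a and Cyp3a41b. It was not found in Cyp3a44 or in Cyp3a11, while TATAAA was found in all 5.

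Apart from Cyp2u1, the members outside these clusters lay within 2-fold. Cyp2e1 had a mean normalized count of 183984 in males and 182573 in females. Cyp1a2, which oxidizes caffeine and arylamines, had 22534 and 19817, and its neighbour Cyp1a1, the inducible enzyme for polycyclic aromatic hydrocarbons, was low at 38.5 and 34.6. Cyp2j5, an arachidonic acid epoxygenase, had 16593 and 19510. Cyp2r1, a vitamin D hydroxylase, had 575 and 551. Cyp2f2, the naphthalene-oxidizing enzyme, lies at the end of the Cyp2a cluster and had 34573 in males and 23443 in females, a log2 ratio of 0.58.

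Near copies often had unlike ratios. Of the 21 pairs within a subfamily that are at least 90% identical and have both ratios, 18 (85.7%) differed by more than 1 in log2 ratio, with a median difference of 4.15. Of the 71 less identical pairs, 52 (73.2%) did, with a median difference of 2.68. Pairs share genes and are not independent, so these are descriptions. A difference of ratios also does not mean that only 1 gene of the pair is sex-biased. In several of the 18 pairs, such as Cyp2b9 with Cyp2b13 and Cyp2c40 with Cyp2c69, both genes were female-higher. Cyp3a41a and Cyp3a44 are another such pair, with few male reads. Their counting intervals, 1273 to 11961 and 403 to 1443, overlap. Reads that fit more than 1 gene could not be placed. Of the 38 members, 5 had more than 10% of their 150-base windows in another gene's transcript, namely Cyp3a41a, Cyp3a41b, Cyp2c69 (22.5%), Cyp2c40 (16.8%) and Cyp2c67 (13.0%), and 20 had none. For Cyp2a4 the share was 4.22% and for Cyp2a5 5.74%. With windows of 75 bases, 18 members had more than 10%, with Cyp2a4 at 22.1% and Cyp2a5 at 25.3%. Cyp2c29, Cyp2d9 and Cyp2d10 also overlap another gene of GENCODE M39 on the same strand, over 8.53%, 8.66% and 1.14% of their exons. The authors counted reads on an Ensembl annotation that was not used here, so these overlaps need not apply to their counts.

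**Figure D5:**
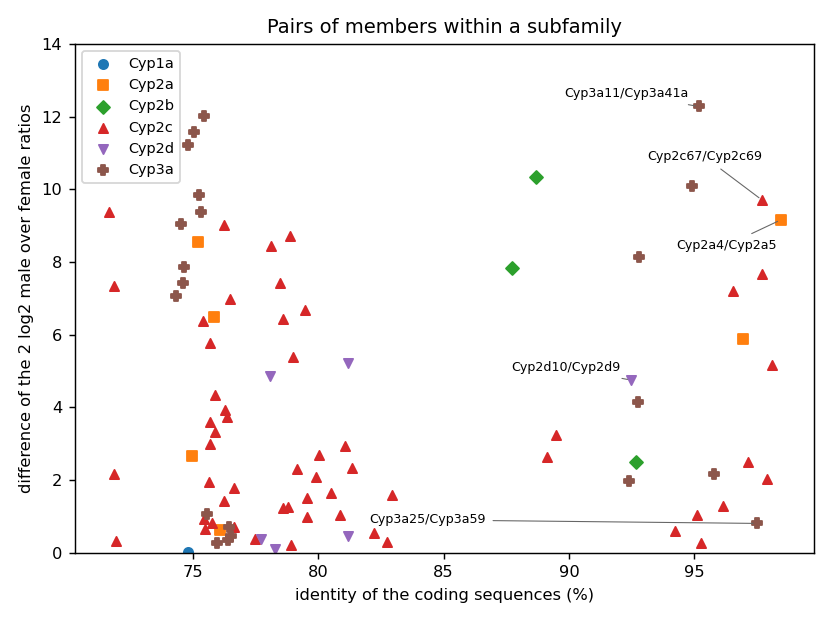
Each point is a pair of members of 1 subfamily, placed by the identity of their coding sequences (percent) and by the difference of their log2 ratios of male over female level. Pairs above 90% identity reach differences of over 12 (Cyp3a11 and Cyp3a41a), and Cyp3a25 and Cyp3a59 are an example of a close pair with similar ratios.

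The motifs were counted on both strands over 300 bases, from 250 before to 50 after each start. Matches were allowed to overlap. The promoters of all genes were not matched to those of the members in base composition, so the shares below are descriptions. CAAAGTCCA was found in 7 of 38 members, against 0.450% of 21757 protein-coding promoters. Of the 7, 6 were among the 16 female-higher genes (Cyp2c40, Cyp2c68, Cyp2c69, Cyp3a16, Cyp3a41a and Cyp3a41b) and 1 was Cyp2c67. These genes are near copies of each other in 2 clusters, so the matches are not independent. TTNNGCAA was found in 12 members, 8 of them female-higher, against 10.7% of all promoters, and TATAAA in 22 members against 13.2%. GCGTG, the core letters of the AHR response element, was found in 4 members against 37.0% of all, and 4 of its copies lie before Cyp1a1. TTCNNNGAA, the STAT5 letters, was found in no member within this window and in 8.82% of all promoters.

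All 8 genes of the list of redox partners and heme genes lay within 2-fold, with log2 ratios from -0.10 to 0.74. Most genes did so, with 4.12% of all genes more than 2-fold higher in females and 1.44% in males. The list also holds Hmox1, which degrades heme, and Ephx1, an epoxide hydrolase, which had the highest ratio. The most abundant were Alas1, the rate-limiting enzyme of heme synthesis, at 31055 in males and 19492 in females, Pgrmc1, a heme-binding P450 partner, at 28730 and 25868, and Cyb5a, cytochrome b5, at 18941 and 20626. Of 28 receptors and factors known to regulate P450 genes, 2 were higher in females and 1 in males, against the same 4.12% and 1.44% of all genes. Counts this small do not set either list apart. Cux2, a female-biased liver repressor, had 27.3 in males and 1658 in females. Socs2, an inhibitor of growth hormone signalling, had 385 and 1051. Bcl6, a male-biased repressor, had 2351 in males and 1079 in females. Those with the highest means, Hnf4a (23196 and 19883), Ghr (23123 and 21481) and Rxra (15193 and 13899), were within 2-fold.

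Of 50 other Cyp1, Cyp2 and Cyp3 rows, 24 genes and 26 pseudogenes, 15 were in both tables. Of these, 3 were higher in females, 2 in males and 10 within 2-fold. No functional gene outside the members was female-higher by the rule, and Cyp2d11 was male-higher at 35.7 in males and 14.6 in females. The most abundant were within 2-fold. Cyp2c70, which makes muricholic acids, had 11623 in males and 14839 in females, Cyp2c23 had 11565 and 10973, Cyp2d13 had 7811 and 10493, the pseudogene Cyp2d36-ps had 2256 and 2668, and Cyp2j6 had 2117 and 1839.

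The tables went with their sex labels: Xist had a mean of 14.0 in males and 72478 in females, and the Y-linked Ddx3y (3147), Eif2s3y (1453), Kdm5d (964) and Uty (1373) were listed in the male table only. Midn had 1672 in males and 1357 in females, values that pool both genotypes and so do not check them. All 15 hepatocyte markers, central and portal zones included, lay within 2-fold (log2 ratio -0.73 to 0.47), as did all 14 markers of cholangiocytes, Kupffer, endothelial and stellate cells (-0.93 to 0.25). Most genes did so, with 4.12% of all genes more than 2-fold higher in females and 1.44% in males. These counts therefore do not set the markers apart. The summed means of the cholangiocyte markers were 326 and 337, where Sox9 (245 and 209) carried the sum and Krt19 (19.7 and 38.1), Krt7 (22.1 and 34.3) and Epcam (38.7 and 55.5) all had the larger mean in females. Those of the Kupffer markers were 4149 and 4733, of the endothelial markers 7146 and 8390, and of the stellate markers 8651 and 11321 in males and females. No defining marker was at 0, and the part of cell composition in the ratios was not tested. In tissue RNA, fewer cells of a type and less RNA per cell cannot be told apart. The female table lists no mean below 6.61, and 58 genes with a male mean over 2 times that value were not in it. The male-higher share leaves these genes out and covers only genes in both tables.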

How the data were processed

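RNA-seq libraries were made from rRNA-depleted, stranded liver RNA of 3 WT and 3 Midn-T mice per sex and sequenced as 150 bp read pairs. Alignment by the authors was to GRCm39, with STAR (version 2.7 in the submitters' processing notes). Their gene counts took only uniquely mapped reads and used strand (HTSeq). The signal that the authors deposited for each gene is a mean over the 6 libraries of a sex, after they had divided the counts by DESeq2 size factors set within that sex. The other numeric columns hold the authors' own comparison of Midn-T with WT (log2 fold change, standard error, Wald statistic, p-value and adjusted p-value) and were not used, and the ATAC-seq lists hold only positions and directions of peaks selected by the authors' comparison and were not used.

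Genes were joined on the Ensembl identifier, and each mean was divided by the sum of its table, which is nearly equal in males and females. Levels per kilobase used the union of exons in GENCODE M39 on GRCm39, while the authors had counted reads on an Ensembl annotation. The depth of single libraries is not in the tables. In males, low means are sums of 6 fixed steps, the value of 1 read in each library, which explained 100% of 5611 low values at a tolerance of 5e-06 and gave size factors of 0.598 to 1.27, so that the deepest male library had 2.13 times the reads of the shallowest. These steps could not be tied to samples. The female table lists no value low enough for this, so the depth of its libraries is unknown. Read numbers behind low male means come from these steps. The 95% intervals are Poisson intervals for the smallest read number that the steps allow, applied to the ratio. They treat the 6 libraries as a single count although their size factors differ, so they are approximate.

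Sequences came from the GRCm39 genome and the GENCODE M39 transcripts, with RefSeq used for synonyms only. No protein table was used, so identity was computed on coding sequences by global alignment in place of the planned protein identity. Every member was named, with the 5 most abundant other rows of families 1 to 3, and, of each list, every gene past 2-fold and the 3 with the largest mean. One gene of the regulator list is not reported here. The members and lists were chosen with earlier results of these data known. The join and the window search were tested on simulated data. Scripts used pandas 2.3.3 and numpy 2.4.6 under Python 3.11.15, with Biopython 1.88 for alignments, scipy 1.17.1 for intervals, pyfaidx 0.9.0.4 for sequence and matplotlib 3.10.9 for plots.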

Additional observations from a re-analysis of the deposited data

How the results depend on the processing

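The counts of 16 female-higher and 2 male-higher members were the same with the means as deposited, with the median ratio of all genes set to 1 and with the 10 largest genes left out of the sums. These scalings moved every log2 ratio by -0.02, 0.05 and -0.05, and no ratio past 2-fold turned. The member nearest the 2-fold limit was Cyp2c67, at a log2 ratio of 0.66. Shifts this small could therefore not change the member counts, and the agreement lends them no support. At a 1.5-fold threshold, 17 members were female-higher and 4 male-higher, against 11.6% and 4.0% of all genes. At 4-fold, 13 and 2 were, against 0.909% and 0.347%. Among genes whose mean over both tables was at least 100, a filter that many members pass only through the sex where they are high and that therefore supports no count, 15 of 36 members were female-higher against 1.68% of all genes, and 2 were male-higher against 1.34%. An alternative chosen after seeing the data counted genes absent from the female table as male-higher where their male level allows it. With only those genes added to the total, the male-higher share was 1.76%. With windows of 75 bases, 18 members had more than 10% of their windows in another gene. With the longest transcript as length, 9 of the 10 highest members in males and 10 of 10 in females were the same genes. The subfamily shares were not recomputed with that length. No paired analysis was possible because the tables hold no value per sample, and no replicate could be left out for the same reason. The shared normalization of WT with Midn-T in each table and the depth of the female libraries limit every ratio.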

Other observations

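The pseudogene rows of the P450 clusters gave further values. Of 26 pseudogenes, 5 were in both tables. Cyp3a63-ps, which lies between Cyp3a41b and Cyp3a41a, had a mean normalized count of 0.481 in males and 42.0 in females. Cyp2b27-ps, next to Cyp2b13, was listed at 0 in males and at 21.3 in females, and Cyp2a21-ps, whose annotated span holds Cyp2a22 on the other strand, had 2.50 and 11.4. Cyp2d41-ps had 34.3 in males and 11.6 in females. Except for the 5 genes of largest mean, these rows were picked after their values were seen. Of the 24 other genes of families 1 to 3, 6 were listed at 0 in males, among them Cyp2b23, Cyp2j11 and Cyp2w1.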
